A study of Mus musculus with 16 samples.

Results

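The regions described here are the open chromatin regions of 10 genes that control the entry of pancreatic beta cells into the cell cycle: Ccnd1, Ccnd2, Ccnd3, Cdk4, Cdkn1a, Cdkn1b, Cdkn2a, Cdkn2b, Cdkn2c and Foxm1. Whole islets were profiled by ATAC-seq. In this assay a transposase cuts accessible chromatin, and a peak marks a stretch where cuts pile up. The mice came from the 8 inbred strains labelled 129S1_SvImJ, A_J, C57BL/6J, CAST_EiJ, NOD_ShiLtJ, NZO_HlLtJ, PWK_PhJ and WSB_EiJ, called here 129, AJ, B6, CAST, NOD, NZO, PWK and WSB. A female and a male sample of 50 islets represented each strain, 16 samples in all. The labels name no treatment and no engineered allele, and give neither the age nor the number of mice behind a sample. With 2 samples a strain, the p-values given for strain in a region measure the difference among strains against the spread left within strains. This spread is what remained after the sex difference common to all strains was removed. It was pooled over the strains and drawn toward that typical of all regions tested, and it may be partly technical.

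The overlapping or touching peaks of the 16 lists on chromosomes 1 to 19 were merged into 347712 regions. A region was assigned to a gene when it overlapped the gene body in GENCODE or the 3 kb upstream of it, which gave 59 regions for the 10 genes. The signal of a sample in a region was the height of its highest peak summit there, divided by the median height of that sample over the 40940 regions that were called in every sample, here called shared regions. A scaled signal of 1 is therefore the height of a typical shared region in the same sample. A value of 0 means that no peak was listed, not that the chromatin was closed. All coordinates are on mm10, counted from 1.

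The D-type cyclins, encoded by Ccnd1, Ccnd2 and Ccnd3, bind the kinase Cdk4 and drive a resting cell into the cycle by phosphorylating the retinoblastoma protein. The Ink4 inhibitors, encoded by Cdkn2a, Cdkn2b and Cdkn2c, block this kinase, and the Cip/Kip inhibitors encoded by Cdkn1a and Cdkn1b bind cyclin and kinase together. Cdkn2a also encodes p19Arf, an activator of the p53 pathway, from a start of its own. Foxm1 is a forkhead transcription factor that switches on genes of mitosis. In mice, Cdk4 and Ccnd2 are required for the growth of beta cell mass after birth, and p16Ink4a accumulates in islets with age.

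Upstream sequences are shown for the starts on which the results turn. These are the start of Cdk4, where the strains differed, both starts of Cdkn2a and that of Cdkn2b, which span the widest contrast in signal, and both annotated starts of Cdkn1a, of which the first held no peak. The sequences are the bases that precede the RefSeq start in the table of promoters for GRCm38.p6, the same assembly as mm10, written 5′ to 3′ in the direction of the gene and stopped before any base that GENCODE places in an exon of the gene. Of the 10 genes, 7 had an entry in that table. Ccnd1, Ccnd2 and Foxm1 had none. Capitals mark matches, on either strand, to an E2F motif (TTTGGCGC, TTTCCCGC, TTTGCCGC or TTTCGCGC), the CHR element (TTTGAA), the CCAAT box (CCAAT), the GC box (GGGCGG), a forkhead motif (TGTTTAC), the cAMP response element CRE (TGACGTCA) or the E-box (CACGTG), the last of which was added after the sequences had been read.
Cdk4, chr10:127063285-127063533, plus strand: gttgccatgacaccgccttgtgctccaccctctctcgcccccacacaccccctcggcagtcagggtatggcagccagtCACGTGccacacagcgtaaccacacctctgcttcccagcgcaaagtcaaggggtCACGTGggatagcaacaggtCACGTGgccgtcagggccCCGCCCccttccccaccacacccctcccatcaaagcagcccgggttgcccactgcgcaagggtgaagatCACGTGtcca
Cdkn2a, p19Arf start, chr4:89294654-89294869, minus strand: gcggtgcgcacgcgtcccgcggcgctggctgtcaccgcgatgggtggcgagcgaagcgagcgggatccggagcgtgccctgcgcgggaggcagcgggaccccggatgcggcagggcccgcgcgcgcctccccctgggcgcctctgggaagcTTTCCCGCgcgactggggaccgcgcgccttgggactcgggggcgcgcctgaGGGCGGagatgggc
Cdkn2a, p16Ink4a start, chr4:89282193-89282442, minus strand: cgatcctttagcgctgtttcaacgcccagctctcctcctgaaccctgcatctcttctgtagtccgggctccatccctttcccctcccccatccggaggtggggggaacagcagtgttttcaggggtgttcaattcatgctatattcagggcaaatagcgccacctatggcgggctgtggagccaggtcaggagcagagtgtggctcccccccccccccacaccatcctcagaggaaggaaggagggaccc
Cdkn2b, chr4:89311040-89311282, minus strand: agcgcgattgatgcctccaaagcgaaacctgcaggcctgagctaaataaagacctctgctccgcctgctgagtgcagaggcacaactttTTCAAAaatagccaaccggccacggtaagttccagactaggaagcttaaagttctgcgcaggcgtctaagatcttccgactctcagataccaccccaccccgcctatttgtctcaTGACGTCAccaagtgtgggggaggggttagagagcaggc
Cdkn1a, first start, chr17:29090729-29090975, plus strand: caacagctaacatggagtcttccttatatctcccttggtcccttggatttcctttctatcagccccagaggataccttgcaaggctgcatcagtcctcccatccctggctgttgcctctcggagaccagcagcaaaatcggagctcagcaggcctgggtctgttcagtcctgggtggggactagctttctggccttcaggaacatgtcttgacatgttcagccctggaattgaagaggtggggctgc
Cdkn1a, second start, chr17:29093519-29093768, plus strand: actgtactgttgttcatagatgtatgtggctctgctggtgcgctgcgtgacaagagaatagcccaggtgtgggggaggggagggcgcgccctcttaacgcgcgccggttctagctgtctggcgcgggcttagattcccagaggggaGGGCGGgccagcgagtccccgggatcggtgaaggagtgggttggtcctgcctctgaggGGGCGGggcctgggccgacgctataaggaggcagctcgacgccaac

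In the 250 bases before the RefSeq start, the p19Arf promoter held 1 E2F match, 99 bases before the start, and 2 GC boxes, 48 and 14 bases before it, the nearer of which lies past the printed stretch. An E2F match was present in 1.86% of the 32851 promoters of the table and a GC box in 32.7%. The p16Ink4a promoter held no match to any of the motifs. The Cdkn2b promoter held a CHR match, present in 15.99% of all promoters, and a CRE, present in 1.55%. The Cdk4 promoter held 1 GC box and 4 E-boxes. At least 1 E-box was present in 6.02% of all promoters, and 7 of the 32851 held 4 or more. This motif was added after the sequences had been read, and the cutoff of 4 is the Cdk4 count itself, so its rarity is no test. The second start of Cdkn1a had 2 GC boxes and the first had no match. The promoter of the inhibitor Cdkn1b, not printed, had 2 CCAAT boxes, which 33.8% of promoters contained, and 1 GC box. The first start of Ccnd3 had a forkhead match, present in 3.17%, and 2 GC boxes. No 2 matches overlapped in any of the 11 promoters of these genes. A match to these letters is a description of the sequence and was not tested for binding.

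Of the 59 regions, 18 had a peak in all 16 samples, which is 30.5%, against 11.8% of all merged regions. Another 18 had a peak in a single sample and the remaining 23 in 2 to 15 samples. Of the 14 regions at transcript starts 9 were shared, and of the 28 in introns 3 were. Of the 7 upstream regions 4 were shared, and of the 10 exonic regions 2 were. Shared regions were wide, with a median width of 1790 bases against 400 for all 59. The highest scaled signal among the regions listed in a single sample was 0.41, which is a Ccnd2 region of the 129 female. A peak slightly under the calling threshold is listed as 0, so presence in a few samples does not separate absence from low signal.

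**Figure D1:**
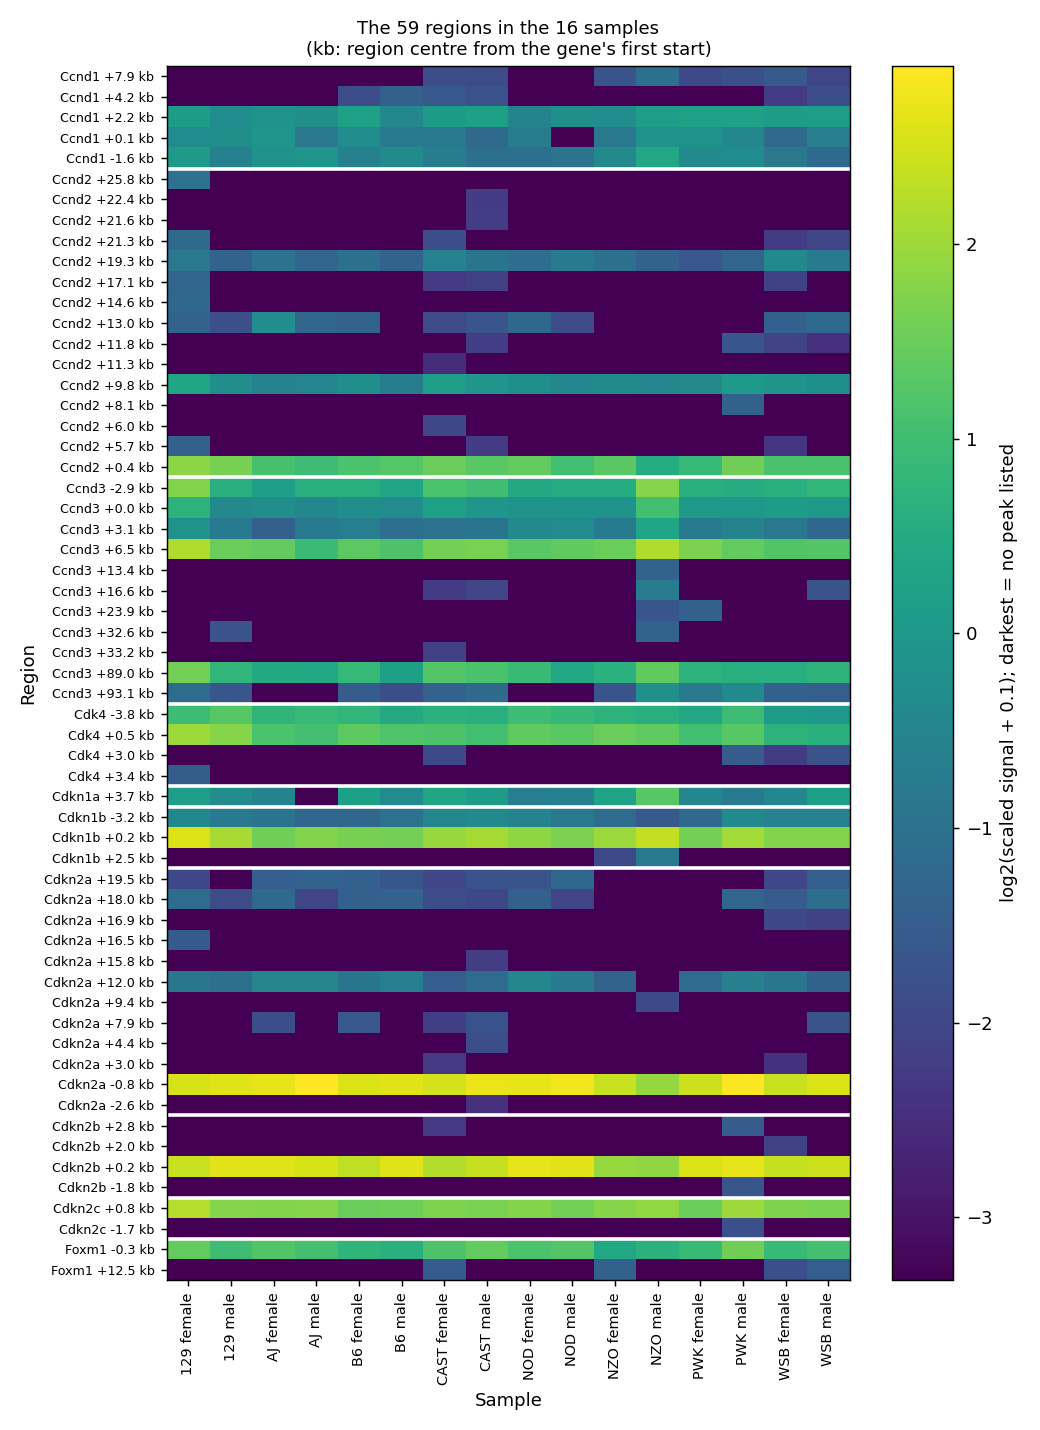
Scaled signal of the 59 regions (rows, grouped by gene, with the distance of the region's centre from the gene's first start in kb) in the 16 samples (columns), on a log2 colour scale on which the darkest colour means that no peak was listed. Bright rows run through all samples at the starts of Cdkn2a, Cdkn2b, Cdkn1b and Cdkn2c, whereas most introns of Ccnd2, Ccnd3 and Cdkn2a hold peaks in a few samples.

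The islet label was checked against promoter regions of marker genes. All 8 beta cell genes examined, Ins1, Ins2, Iapp, Pdx1, Nkx6-1, Mafa, Slc2a2 and G6pc2, had a promoter peak in 16 of 16 samples, and their summed scaled signal ranged from 14 to 21.1. The defining alpha cell gene Gcg also had one in every sample, so the lists hold more than beta cells, and the delta cell gene Sst had none in any. Hhex, the other delta cell gene examined, had a promoter peak in 10 of 16 samples, with up to 1.26 in the CAST male. Of the 7 acinar genes with a match on chromosomes 1 to 19, 6 had no peak in any sample, as did 3 of 4 endothelial genes and 5 of 9 leukocyte genes. The NZO male stood apart. Its leukocyte sum was 2.62 against 0 to 0.61 in the other 15 samples, its duct sum was 2.47 against 0.42 to 1.27, and it was the only sample with an acinar peak. Over the 40940 shared regions, the female and the male of NZO correlated least (r = 0.85) and those of CAST most (r = 0.97). In whole islets, fewer cells of a type and less accessible chromatin per cell cannot be told apart.

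Signal at the coding starts differed widely between the genes (the plot of signal at the starts). It is the height of the highest summit in a region and not a sum over its length. A wide region with several peaks still has more chances of a high value, and its highest summit can lie away from the start. The order is therefore given as a description with no test. The highest was the p19Arf start of Cdkn2a, with a median of 5.97 over the 16 samples. The start of Cdkn2b, the p15Ink4b inhibitor, followed with 5.53. The ranges of these neighbours overlapped, from 3.71 to 7.45 and from 3.58 to 6.30. Cdkn1b, which encodes the p27Kip1 inhibitor, had a median of 3.38, and Cdkn2c, which encodes p18Ink4c, had 3.24. Their ranges also overlapped, from 2.85 to 5.90 and from 2.71 to 4.55.

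Below the Cdkn2c start came Cdk4 with a median of 2.27, Ccnd2 with 2.21 and Foxm1 with 2.00, whose ranges overlapped among themselves. In the wide Ccnd2 region the highest summit lay 4283 bases past the coding start in the NZO male. In every other sample it lay 1148 to 1175 bases past that start. A peak lay over the start in 12 of 16 samples. The internal start of Ccnd3 had 1.55 and the first start of Ccnd3 had 0.84. The remaining starts lay under the typical shared region in most samples. The Cdkn1a region ranged from 0 to 2.35, the Ccnd1 start from 0 to 0.86 and the p16Ink4a start of Cdkn2a from 0 to 0.64. Every sample had a higher signal at the p19Arf start than at any cyclin start.

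**Figure D2:**
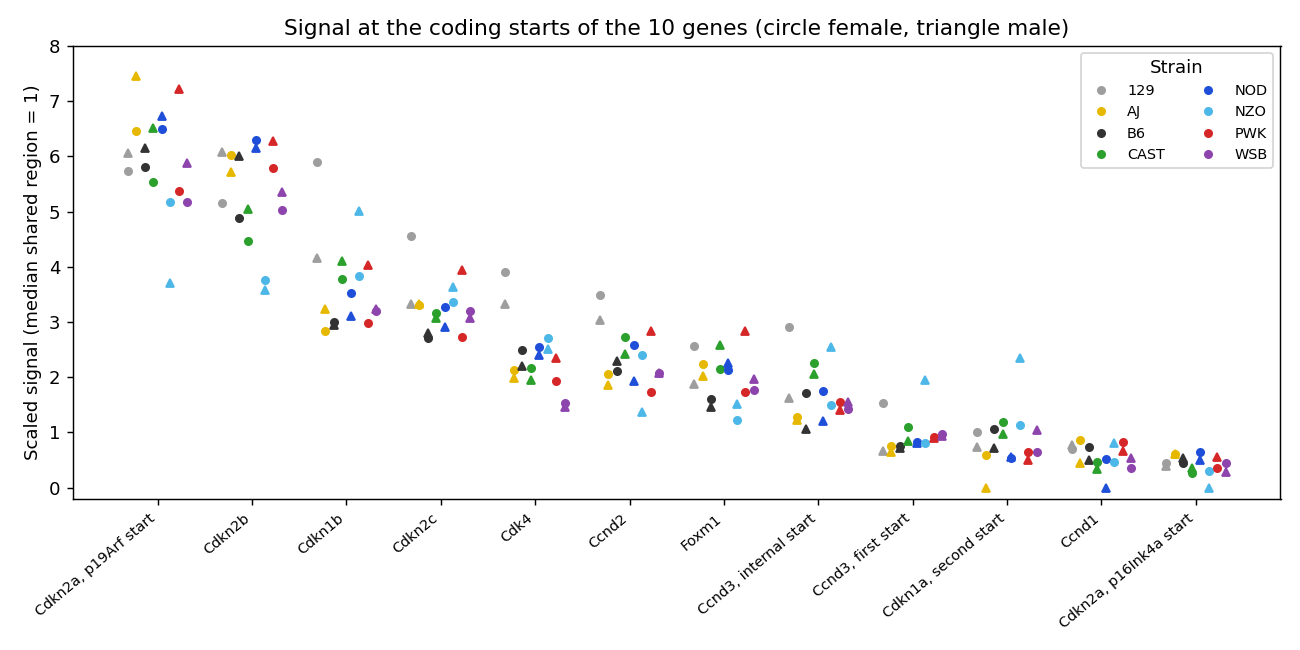
Scaled signal (y axis, 1 being the median shared region of the sample) at 12 regions over coding starts of the 10 genes (x axis), ordered by their level. Circles are females, triangles males and colours strains. The p19Arf and Cdkn2b starts sit between 3.58 and 7.45 in all 16 samples, and the p16Ink4a start between 0 and 0.64.

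The question put to the shared regions was whether accessibility at these genes differed among the 8 strains. Of the 18 shared regions, 2 passed limma's moderated F test for strain, with Benjamini-Hochberg adjustment over all 40940 regions tested. These were the start of Cdk4 and a region upstream of Ccnd1. Across all shared regions 35.7% passed. The strain means of a region spanned a median of 0.81 on the log2 scale over the 18 regions and 1.11 over all shared regions. The root mean square difference between the female and male of a strain had medians of 0.39 and 0.44. The shared region upstream of Cdk4 had an unadjusted p under 0.05 and did not pass after adjustment.

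Cdk4, the kinase itself, lies on chromosome 10 (127063534 to 127067920, plus strand). The region over its start, chr10:127062686-127065399, covers the first exons and introns. In all 16 samples its highest summit lay 139 to 240 bases before the first coding start, inside the stretch printed above. The scaled signal there was 3.91 in the 129 female and 3.32 in the 129 male, and 1.54 in the WSB female and 1.47 in the WSB male. The other 12 samples ranged from 1.94 to 2.72, between those of 129 and those of WSB, with no overlap. The strain means ran from 3.62 ± 0.42 (SD, n = 2) in 129 to 1.5 ± 0.05 in WSB. The strain effect had an adjusted p of 0.0214 in the limma F test.

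Against the mean of the other 7 strains, 129 was higher at the Cdk4 start by 0.75 on the log2 scale (SE 0.17, limma adjusted p = 0.0330) and WSB was lower by 0.68 (SE 0.17, adjusted p = 0.0302). All of these calls were kept without the NZO male. Over all shared regions, 1.01% were called higher in 129 and 3.14% lower in WSB. The region kept its direction for both strains under each of 25 alternatives, but 7 of them ended the strain call. These were centring within bins of GC content (adjusted p = 0.0552), the mean signal column (0.0884), and the fits without the 129 female (0.0734), the CAST female (0.0556), the CAST male (0.0563), the WSB female (0.0903) and the WSB male (0.0881). The range of the adjusted p over the alternatives was 0.00864 to 0.0903. The call for 129 was lost in 12 of the 25 alternatives and the call for WSB in 9. With no centring the differences were 0.49 for 129 (adjusted p = 0.444) and -0.25 for WSB (0.555). With the mean signal column they were 0.53 for 129 (0.149) and -0.32 for WSB (0.321). Centring within bins of GC content gave 0.48 for 129 (0.124) and -0.58 for WSB (0.0614), so neither call was kept. Both calls were also lost in the fits without either CAST, either NOD or either WSB sample, and that of 129 without the 129 female (0.437), the 129 male (0.0889) or the AJ female (0.0525).

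A second region upstream of Cdk4, chr10:127057999-127061399, lies in the body of March9 and over its start. Its highest summits fell 3134 to 3176 bases before the Cdk4 start in the 16 samples. WSB was again lowest, with 0.98 in the female and 0.90 in the male, under the 1.21 to 2.33 of the other 14 samples. WSB fell by 0.78 on the log2 scale relative to the other 7 strains (SE 0.19, limma adjusted p = 0.0340), while the strain effect as a whole did not pass (adjusted p = 0.0705). The WSB difference kept its sign under all 25 alternatives and its call under 14 of them, with a smallest difference of -0.19 with the mean signal column. The call was lost with no centring (-0.35, limma adjusted p = 0.447) and with centring within bins of GC content (-0.59, 0.128). The mean signal column (0.605) and the regions called in at least 12 samples (0.0747) ended it as well. It was also lost in the fits without the AJ male, either CAST sample, either NOD sample or either WSB sample. Over the 16 samples the 2 Cdk4 regions correlated with r = 0.81. Without the NZO male r was 0.83. They lie a few kb apart in the same libraries.

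Ccnd1, which encodes cyclin D1, lies on chromosome 7 (144929931 to 144939925, minus strand) and had 5 regions. The called one, chr7:144941366-144941770, is 405 bases wide, and its highest summits lay 1768 to 1826 bases before the coding start. It was a weak region. The scaled signal was 0.38 and 0.43 in the NOD female and male, 0.45 and 0.34 in WSB and 0.52 and 0.40 in CAST. In the other 5 strains it ranged from 0.56 in the B6 female to 1.22 in the NZO male, which did not overlap with NOD, WSB and CAST. The strain effect had an adjusted p of 0.0378 in the limma F test, and no contrast of a single strain passed. It was the less stable of the 2 calls, since 13 of 24 alternatives ended it. Among these were the fits without either sample of AJ, CAST, NOD, PWK or WSB, and the largest of all was 0.210 with no centring.

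**Figure D3:**
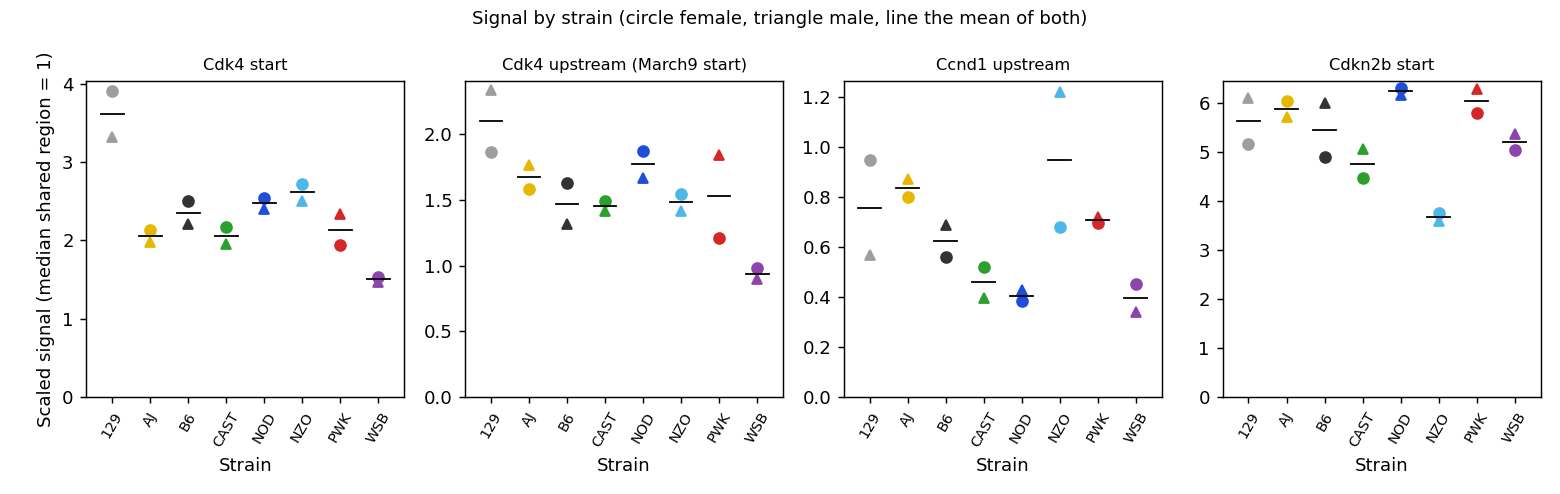
Scaled signal (y axis of each panel, starting at 0) by strain (x axis) at the Cdk4 start, the region upstream of Cdk4, the region upstream of Ccnd1 and the Cdkn2b start. Circles are females, triangles males and lines the mean of both. Both 129 samples are highest and both WSB samples lowest at the Cdk4 start, and both NZO samples are lowest at the Cdkn2b start.

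At the Ccnd1 start itself, chr7:144939248-144940436, 15 samples had a peak and the NOD male had none, so it was not in the fit. The values were 0.51 and 0 in NOD, 0.47 and 0.35 in CAST and 0.35 and 0.53 in WSB, and 0.45 to 0.86 in the other 5 strains. The groups overlapped here. A shared region in the gene body, chr7:144937530-144937948, ranged only from 0.60 to 1.10 (limma adjusted p = 0.447). An intronic region, chr7:144935600-144935881, had a weak peak in both samples of B6, CAST and WSB and in no other sample, with a highest value of 0.28.

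Ccnd2, which encodes the cyclin D2 that is the main D-type cyclin of beta cells, lies on chromosome 6 (127125162 to 127152193, minus strand) and had the most regions, 15. Of these 3 were shared and 7 occurred in a single sample. The region over its starts, chr6:127147569-127155943, is 8375 bases wide and also covers the start of 9330179D12Rik, an antisense gene on the other strand, so the height there may belong to either gene. The 129 samples were highest, with 3.48 and 3.03, and the other 14 ranged from 1.36 to 2.84. The strain effect did not pass (limma adjusted p = 0.316). The shared intronic region with the smallest strain p, chr6:127132000-127133799, ranged from 0.23 in the PWK female to 0.68 in the WSB female (adjusted p = 0.125). A region over an internal noncoding start, chr6:127138693-127139599, had no peak in either NZO or either PWK sample, nor in the B6 male, and reached 0.74 in the AJ female.

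Ccnd3, which encodes cyclin D3, lies on chromosome 17 (47505051 to 47599691, plus strand) and had 11 regions, of which 5 were shared. None of these passed for strain. The strongest was intronic, chr17:47511007-47512052, with its summit about 6.16 kb past the first start and values from 1.80 in the AJ male to 4.42 in the NZO male. The first start, chr17:47504491-47505698, ranged from 0.65 to 1.09 apart from the 129 female at 1.53 and the NZO male at 1.95. Their strain partners, the 129 male at 0.67 and the NZO female at 0.81, lay with the rest. The internal start, chr17:47593140-47594918, showed the same pair on top, at 2.91 in the 129 female and 2.55 in the NZO male. Over the 16 samples, the region at the first start correlated with r = 0.88 with the region upstream of it, chr17:47501475-47502900, which covers the start of Taf8, and with 0.81 without the NZO male. A region near the 3′ end, chr17:47597889-47598437, was without a peak in both AJ and both NOD samples and highest in the NZO male (0.78) and the PWK male (0.69).

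Cdkn2a lies on chromosome 4 (89274471 to 89294653, minus strand), and Cdkn2b lies upstream of it (89306299 to 89311039, same strand). Every sample had far less signal at the p16Ink4a start of Cdkn2a than at the p19Arf start. The p19Arf start, chr4:89294142-89296799, had a peak over the start in 16 of 16 samples, with the highest summit 145 to 188 bases before it. The p16Ink4a start, chr4:89282017-89283199, had one in 15 samples with a highest value of 0.64 in the NOD female, and none in the NZO male. The other 10 regions of Cdkn2a were weaker still, and 5 regions of the gene occurred in a single sample. At Cdkn2b, chr4:89309918-89311817, the summit lay inside the gene, 375 to 440 bases past the start, in all samples.

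NZO had the lowest strain mean at all 3 starts of this locus. At the p16Ink4a start this rests on the male, in which no peak was listed. The NZO female had 0.30 there, above the CAST female (0.26) and the WSB male (0.28). At Cdkn2b the NZO female had 3.75 and the NZO male 3.58, under the range of 4.46 to 6.30 in the other 14 samples. The difference from the other 7 strains was -0.60 on the log2 scale (SE 0.17, limma adjusted p = 0.053) and did not pass. It was -0.51 without the NZO male (adjusted p = 0.385) and -0.69 without the NZO female (0.0323), and across 25 alternatives it ran from -0.77 to -0.36 with adjusted p from 0.0149 to 0.385. At the p19Arf start the NZO female, with 5.17, was level with the lowest of the other 14 samples (5.18) and the NZO male had 3.71. The difference there was -0.49 (SE 0.19, adjusted p = 0.123) and -0.16 without the NZO male (0.854). The 2 starts correlated over the 16 samples with r = 0.79, and with 0.64 without the NZO male.

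A pair of weaker regions near the 3′ end of Cdkn2a, chr4:89274846-89275535 and chr4:89276013-89277227, also had no peak in either NZO sample, and were listed in 11 and 13 of the 16 samples. The PWK female had none there either, and the PWK male had one in the second. Another intronic region, chr4:89277600-89277806, had peaks in both WSB samples and in no other, at 0.15 and 0.14. In the NZO male, low signal at this locus went with the raised leukocyte and duct sums given above, and their part in it was not tested. The NZO female had the second lowest value at Cdkn2b. Its leukocyte sum was 0.53, toward the upper end of the 0 to 0.61 in the samples other than the NZO male. Whether this sum had a part in its signal was not tested either.

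**Figure D4:**
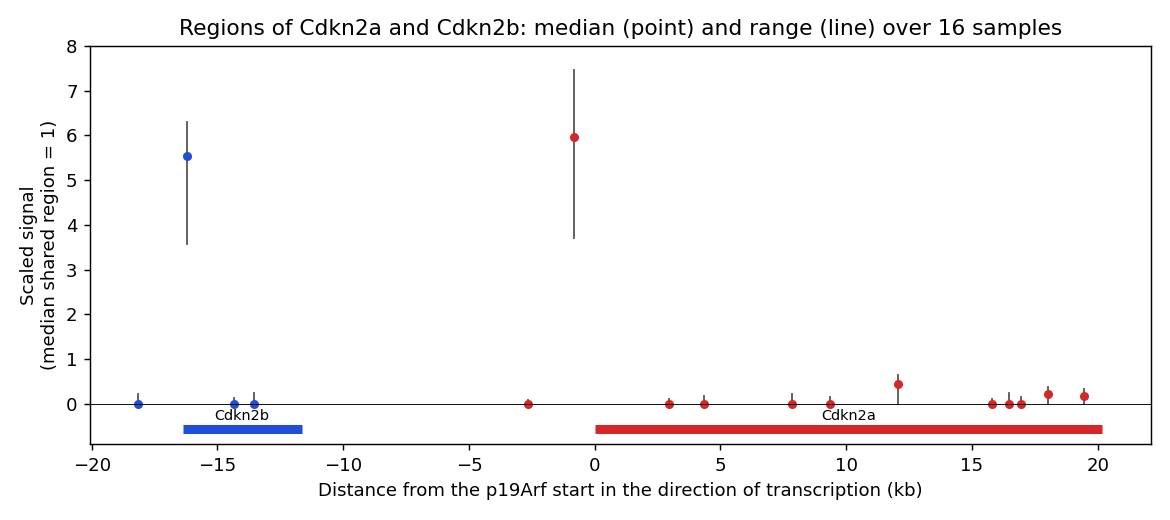
Scaled signal (y axis) of the regions of Cdkn2a (red) and Cdkn2b (blue) by the distance of the region's centre from the p19Arf start in the direction of transcription (x axis, kb). Points are medians and lines the range over 16 samples, and the bars below 0 are the gene bodies. The p19Arf and Cdkn2b starts stand at medians of 5.97 and 5.53, and no other region of the locus exceeds 0.64.

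Cdkn1b, which encodes the p27Kip1 inhibitor, lies on chromosome 6 (134920401 to 134925513, plus strand). Its start, chr6:134919260-134922028, had the 129 female at 5.90, the NZO male at 5.02 and the 129 male at 4.16, and the other 13 samples from 2.85 to 4.1. The strain effect did not pass (limma adjusted p = 0.172). A shared upstream region, chr6:134916689-134917714, was weak, from 0.24 in the NZO male to 0.69 in the PWK male, with CAST high in both sexes at 0.62 and 0.68 (adjusted p = 0.102). An exonic region, chr6:134922800-134923033, had peaks in both NZO samples and no other, at 0.16 and 0.47.

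Cdkn1a, which encodes p21Cip1 and is a target of p53, lies on chromosome 17 (29090976 to 29100727, plus strand) and had a single region, chr17:29093472-29095923. No peak lay at the first annotated start in any sample. The region covered the second coding start, at 29093769, together with the start of AC167363.2 on the other strand, and a peak lay over that start in 14 samples. The highest summit nevertheless lay 1708 to 1809 bases past it, in an intron, in each of the 15 samples with a peak. The scaled signal there was 2.35 in the NZO male and 1.14 in the NZO female, 0.60 and 0 in AJ, and 0.50 to 1.2 in the other 12 samples. Without the NZO male, the highest value was 1.2 in the CAST female. As the AJ male had no peak, the region was not in the fit.

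Cdkn2c, which encodes p18Ink4c, lies on chromosome 4 (109660876 to 109667189, minus strand). Its start, chr4:109664870-109667919, was listed in every sample. The values ran from 2.71 in the B6 female to 3.94 in the PWK male, apart from the 129 female at 4.55, and the strain effect had the largest adjusted p of the 18 shared regions (0.720). Foxm1 lies on chromosome 6 (128362967 to 128376146, plus strand). Its start, chr6:128361370-128363878, is shared with the divergent gene Rhno1, and the signal cannot be assigned to either. The NZO and B6 samples were lowest there, with 1.22 and 1.51 in NZO and 1.61 and 1.47 in B6, and the other 12 ranged from 1.74 to 2.84. The strain effect did not pass (adjusted p = 0.159), nor did the difference of NZO from the other 7 strains (-0.59, SE 0.21, adjusted p = 0.0988). That difference was -0.71 without the NZO male (adjusted p = 0.336) and -0.48 without the NZO female (0.217), and over 25 alternatives its adjusted p ran from 0.0151 to 0.617.

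Taken over the 8 contrasts of a single strain with the other 7, 3 of the 144 pairs of region and strain were called, against 7.34% over all shared regions. All 3 were the Cdk4 differences given above. Neither an absent call nor a larger p shows that strains were alike at a region, since a strain had 2 samples. In 129, 15 of the 18 regions lay above the other 7 strains, with a median difference of 0.33 on the log2 scale, against 59.1% of all shared regions and a median of 0.09. In B6, 4 of 18 did, with a median of -0.24 against -0.0049 over all regions. The 18 regions had a median GC content of 55.2%, against 47.0% over all shared regions. Its part in these shares was not tested. Of the 18 regions, 5 belong to Ccnd3, and regions of the same gene are not independent. At some starts the 129 female alone was far above the other females, as given below.

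Wild-derived strains (CAST, PWK and WSB) and classical strains (129, AJ, B6, NOD and NZO) were then compared, by limma on the 8 strain means. Of the 18 regions 0 were called, and 0 had an unadjusted p under 0.05. Over all shared regions 0.0342% were called, or 14 regions. The differences, wild-derived minus classical, ran from -0.45 on the log2 scale at the Cdk4 start to 0.44 at the region upstream of Cdkn1b, and the lowest adjusted p was 0.484. No region was called for sex either, with 0 of 18 at an unadjusted p under 0.05 and 0% of all shared regions called by limma. The differences, female minus male, lay between -0.10 and 0.24.

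Peak presence was compared over strains as well. The number of the 59 regions with a peak ran from 23 in the AJ male and the NOD male to 38 in the CAST female. Averaged over the sexes, the 3 wild-derived strains had 33.2 ± 5.48 regions (SD over strains) and the 5 classical ones 25.7 ± 2.02. The difference was 7.47 regions, with p = 0.0357 in a two-sided exact permutation of strain class over all 56 divisions, of which the smallest possible p is 0.0179. CAST and WSB had the most, with means of 37.5 and 35 regions, while PWK had 27, under the 28.5 of 129. The lists of these strains were also longer. Per 1000 peaks of the list, the wild-derived strains had 0.236 ± 0.0352 regions and the classical strains 0.258 ± 0.0374 (p = 0.464, exact permutation test). With the same number of strongest peaks taken from every list, the difference was 0 (p = 1), and with a stricter peak threshold it was 2.37 (p = 0.125, both exact).

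Females and males of a strain did not differ detectably in the number of regions with a peak. Females had 28.9 ± 5.67 (SD, n = 8) and males 28.1 ± 5.19, a mean difference of 0.75 (exact sign-flip test over 256 arrangements, two-sided, p = 0.641), with the female higher in 6 of 8 strains. In the 8 strain lists, cut at an irreproducible discovery rate of 0.05, from 16 regions in AJ and NZO to 23 in CAST and WSB remained. All 18 shared regions remained in 129, CAST and WSB, and 15 in AJ and NZO.

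**Figure D5:**
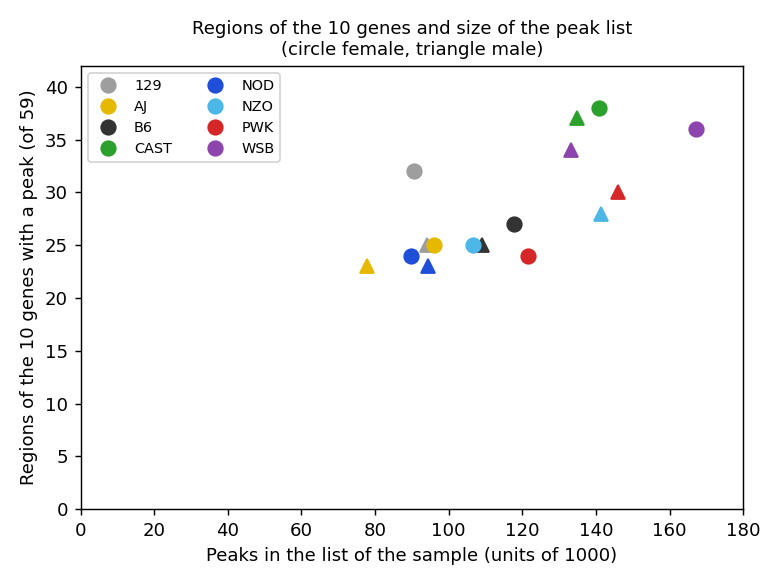
Number of the 59 regions with a peak (y axis) by the number of peaks in the list of the sample on chromosomes 1 to 19 (x axis, in units of 1000 peaks). Circles are females, triangles males and colours strains. The CAST and WSB samples, with 34 to 38 regions, also have long lists, from 133259 to 167051 peaks, and the 129 female has 32 regions in a list of 90476. The PWK male has 30 regions in a list of 145886 peaks and the NZO male 28 in one of 141307.

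Among the 18 shared regions, the correlation over the 16 samples was 0.25 at the median of the 153 pairs and ranged from -0.73 to 0.88. The lowest was between the p19Arf start and the first start of Ccnd3. Without the NZO male that pair had r = -0.42, and the 153 pairs ranged from -0.43 to 0.87 with a median of 0.34. These values describe the same 16 libraries, and the NZO male lay at opposite ends of these 2 regions. Outside 1 Mb of the Cdk4 start, the regions at protein-coding starts whose signal was most like it over the 16 samples were those of Lonp1 with the neighbouring Catsperd (r = 0.93), Upb1 (0.92) and Pkd2l2 (0.91). Without the NZO male these values were 0.93, 0.92 and 0.96.

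Another 28 genes of the cell cycle and its control in beta cells, among them Ccne1, Cdk6, Rb1, E2f2, Ezh2, Trp53 and Men1, had 178 regions. Of these 44 were shared, at 26 of the 28 genes. For strain, 13 of the 44 passed (29.5%), near the 35.7% of all shared regions, at 8 genes. Cdk6, the second kinase partner of the D-type cyclins, held 6 of them. Its most variable region, chr5:3496800-3498096 in an intron, had strain means that spanned 3.24 on the log2 scale, lowest in 129 and highest in CAST (limma adjusted p = 7.51e-05). The start of E2f2, a transcription factor of the S phase programme, had its lowest strain mean in AJ (limma adjusted p = 0.00148). The AJ female had 0.37 and the AJ male 0.44 there, and the B6 male had 0.36. The start of Trp53, which encodes p53, also had its lowest mean in AJ, with 0.54 and 0.40 (0.0394), and the B6 male had 0.53. NZO had the highest mean at both through its male, with 1.60 in the female and 3.09 in the male at E2f2 and 0.83 and 2.15 at Trp53. Without the NZO male the 129 mean was highest at both (2.03 and 1.37), the AJ mean remained lowest at both, and both strain calls were kept. In limma, none of the 44 was called for strain class, with 1 at an unadjusted p under 0.05, and none for sex, with 2.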

How the data were processed

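ATAC-seq was done on islets of 8 mouse strains, 1 female and 1 male sample each (50 islets and 12 amplification cycles per the labels). The authors trimmed reads (cutadapt 2.0), aligned all strains to mm10 (Bowtie2 2.3.4.1), removed duplicates (Picard 2.9.2) and ran MOSAiCS on each sample, with a limit of 0.05 on false discoveries. A transposase shift was not given in the sources used here. The lists used here thus come from reads of every strain placed on the B6 reference; the study also used individualized genomes, which were not used here. The deposited signal is the whole-number summit height of a peak, not scaled to depth, and the −log10 p-values deposited by the authors were used only for the stricter peak threshold. Strain lists, which the authors made by an irreproducible discovery rate (IDR) analysis, were kept at an IDR of at most 0.05. Read totals per sample were not in the files used here, so the depth behind each value is unknown.

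Values were log2(signal + 1), centred on each sample's median over the 40940 shared regions, which expresses a change relative to that median and understates it at low signal. They were fitted with limma 3.58.1 in R 4.3.3 (strain and sex; strain class on the 8 strain means), since heights are not counts. The study tested read counts. Calls needed an adjusted p under 0.05. The script was tested on simulated data. Gene positions came from GENCODE M21 (GRCm38). Peak presence was compared by exact permutation over strains. The genes, lists and tests were chosen with earlier results of these data known. Named regions were those at coding starts, the smallest strain p per gene, the widest strain range among regions not in all samples, and those in both samples of 1 to 3 strains alone. Alternatives changed the centring, the pseudocount (10), the signal column, the filter, the peaks used, the gene window (10 kb upstream or none), the sex term and limma's trend, and left out each sample. No batch was given in the labels.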

Additional observations from a re-analysis of the deposited data

Results flagged for a closer look

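Among 39 groups of samples or strains examined (the 8 females, the 8 males and the 5 classical strain means, at 12 regions over starts and for the number of regions with a peak), 9 had a highest or lowest value far from the rest by Dixon's criterion. Chance sets apart about 1 group in 20, and the same libraries recur. The NZO male was low among males at the p19Arf start (3.71 against 5.88 to 7.45) and at Cdkn2b (3.58 against 5.05 to 6.28), and high at the Cdkn1a region (2.35 against 0 to 1.05) and the first start of Ccnd3 (1.95 against 0.65 to 0.94). Its leukocyte and duct marker sums were the highest of all samples.

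The 129 female was high among females at Cdkn2c (4.55 against 2.71 to 3.36), at Cdkn1b (5.90 against 2.85 to 3.84) and at the first start of Ccnd3 (1.53 against 0.75 to 1.09). Among the classical strain means, 129 was high at the Ccnd2 starts (3.26 against 1.88 to 2.25) and NOD was low at the Ccnd1 start (0.26 against 0.62 to 0.74). In NOD the low mean includes the male, in which no peak was listed.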

How the results depend on the processing

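The number of regions called for strain, 2 of 18, was 13 of 18 with no centring, in which the overall signal height of a sample enters. It was 1 of 18 with the mean signal column, against 27.8% of all regions tested. A stricter peak threshold gave 1 of 14, against 35.5% of all regions tested, and the gene body alone gave 1 of 14. The number of pairs of region and strain called, 3 of 144, was 28 of 144 with no centring. Among regions called in at least 12 samples it was 6 of 184, or 3.26%, against 6.26% of all pairs. With 10 kb upstream it was 5, with 22 regions tested. With no centring, 63.2% of all shared regions were called for strain and 15.2% of all pairs, against 72.2% and 19.4% of those of the 10 genes. Leaving out 1 sample at a time gave 0 to 8 strain calls and 0 to 14 pairs. Both counts were 0 without either CAST or either WSB sample, where 18.7% and 19.2% (CAST) and 23.2% and 22.7% (WSB) of all shared regions were called for strain. Without either NOD sample the pairs were 0 as well, against 4.96% and 4.89% of all pairs. Without the NZO female the counts were 8 and 14, which is 44.4% and 9.72%, against 60.1% of all shared regions and 15.8% of all pairs. The cause was not tested. No region was called for strain class or sex under any alternative. The difference in regions with a peak, wild-derived minus classical, of 7.47 was 2.37 with a stricter peak threshold, 0 with equal numbers of peaks, 6.97 with the gene body alone (exact p = 0.0714) and 3.67 in the strain lists (exact p = 0.125). It ran from 6.47 to 8.47 with 1 sample left out, with exact p from 0.0179 to 0.107. The difference between sexes of 0.75 regions ran from -0.14 to 1.71 with 1 strain left out, and was negative without 129. The lists give no read totals, so depth could not be weighed for any sample.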
